A study of Mus musculus with 8 samples.

Results

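MicroRNAs are short RNAs that are cut from hairpin precursors, loaded into Argonaute proteins and guided by their seed, the bases near the 5′ end, to messenger RNAs whose translation and stability they lower. miR-122 is the best known liver miRNA, made at very high levels by hepatocytes under the control of liver transcription factors, and it is known for its part in cholesterol and lipid metabolism and as a host factor of hepatitis C virus. miR-802 is a far less abundant miRNA of liver and some other epithelia, known for lowering hepatocyte nuclear factor 1 beta and for its rise in the liver of obese mice. Here mmu-miR-122 and mmu-miR-802 were followed through the livers of mice given carbon tetrachloride (CCL4), a hepatocyte toxin used to produce liver fibrosis. They are 2 of the 567 mouse miRNAs read by the array. The pair was selected on its measured signal over all 8 arrays, its shares of the array signal, the ratio of the 2 signals within each array and the opposite direction of the 2 miRNAs in CCL4 liver. Those values chose the miRNAs and are therefore given as a description, with no test.

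The mice were adult male C57BL/6J mice, 8 weeks old, with no genetic modification named. The CCL4 mice received a 10% solution of CCL4 in olive oil into the peritoneum, 2 times a week over the first 4 weeks and weekly after that, and the control mice received olive oil alone. Livers were taken at 4, 6 or 8 weeks, with a single CCL4 array for the first time and 2 for each of the later times, and with 1 olive oil array at each time. The labels do not say whether an array carried RNA of a single or of several animals, so n is the number of arrays, and p-values measure the spread between these arrays, which may be technical. Whole liver RNA was hybridized, so fewer cells of a type and less RNA per cell cannot be told apart. Each miRNA signal is the background-subtracted brightness summed over its probes. Unless stated otherwise, levels are on the scaled log2 scale, which is log2 of the signal over the 75th percentile that the 567 mouse miRNAs had on that array.

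The 8 arrays shared 1 slide and 1 scan. The total signal of an array ranged from 63904 to 137247 and the number of miRNAs detected from 117 to 158, and for both the 2 groups overlapped. The CCL4 array of 4 weeks had the highest number detected. The 75th percentile ranged from 6.53 to 11.0 on the CCL4 arrays and from 4.71 to 6.48 on the olive oil arrays, so all CCL4 arrays were divided by a larger number than the olive oil arrays. The arrays of 4 weeks, the olive oil array of 6 weeks and replicate 1 of CCL4 at 6 weeks lay in row 1 of the slide, and the remaining arrays lay in row 2.

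The sequence of mmu-miR-802 is shown because it is read by both of its probes and its seed sets it apart from the miRNAs that had a like pattern. In the RefSeq table of build GRCm38.p6 the mature miRNA, taken as the 5p arm, lies at chr16:93369737-93369758 on the plus strand, within a hairpin of 97 bases at chr16:93369720-93369816. The capitals mark the seed, bases 2 to 8, in the first line and the mature arm in the second.
mmu-miR-802: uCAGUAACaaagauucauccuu
mmu-miR-802 hairpin: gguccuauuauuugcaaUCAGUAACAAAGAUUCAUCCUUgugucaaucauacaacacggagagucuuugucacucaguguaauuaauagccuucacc
Of the 1679 mature mouse miRNAs in that table, 1 had this seed, mmu-miR-802 itself. The array file places its 2 probes, in the earlier build mm9, at chr16:93369982-93370003 for the longer probe of 22 bases and chr16:93369983-93370003 for the shorter probe of 21 bases, each printed as 10 spots. Coordinates of the 2 builds cannot be set against each other.

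mmu-miR-122 was the brightest miRNA on every array. In CCL4 mice its signal was 19389 at 4 weeks, 18497 and 25638 on the 6-week pair, and 35101 and 30800 on the 8-week pair. In control mice it was 25371, 24201 and 30018 in the order of weeks. Before scaling the groups overlapped, and the brightest and the dimmest arrays were both CCL4 arrays.

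After scaling, the level of mmu-miR-122 in CCL4 mice was 11.00 at 4 weeks, 11.47 and 11.73 on the 6-week pair and 11.64 and 11.79 on the 8-week pair. Control mice were at 12.28, 12.33 and 12.18 in the same order of weeks. All 5 CCL4 arrays were below all 3 olive oil arrays, with 0.38 between the highest CCL4 array and the lowest olive oil array, and the CCL4 array of 4 weeks was the lowest. The CCL4 mean was 11.52 ± 0.32 (SD, n = 5) and the olive oil mean was 12.26 ± 0.08 (SD, n = 3). With the week taken into account, CCL4 minus olive oil was -0.78 (SE 0.18), or 0.581-fold.

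mmu-miR-802 lay close to the detection limit of the array. In CCL4 mice its signal was 25.6 at 4 weeks, 23.2 and 33.8 on the 6-week pair, and 38.4 and 47.6 on the 8-week pair. Control mice gave 12.7, 9.91 and 15.7 in the order of weeks. Even before scaling, the lowest CCL4 value exceeded the highest control value. Its rank by signal among the 567 miRNAs was between 82 and 110 on the CCL4 arrays and between 108 and 112 on the olive oil arrays.

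The scaled level of mmu-miR-802 in CCL4 mice was 1.43 at 4 weeks, 1.83 and 2.16 on the 6-week pair and 1.80 and 2.46 on the 8-week pair. Control mice were at 1.31, 1.07 and 1.28. The groups did not overlap, but the CCL4 array of 4 weeks was only 0.12 above its own olive oil control, the nearest of the controls. The CCL4 mean was 1.94 ± 0.39 (SD, n = 5) and the olive oil mean was 1.22 ± 0.13 (SD, n = 3), and the week-adjusted difference was 0.68 (SE 0.26), or 1.60-fold.

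**Figure D1:**
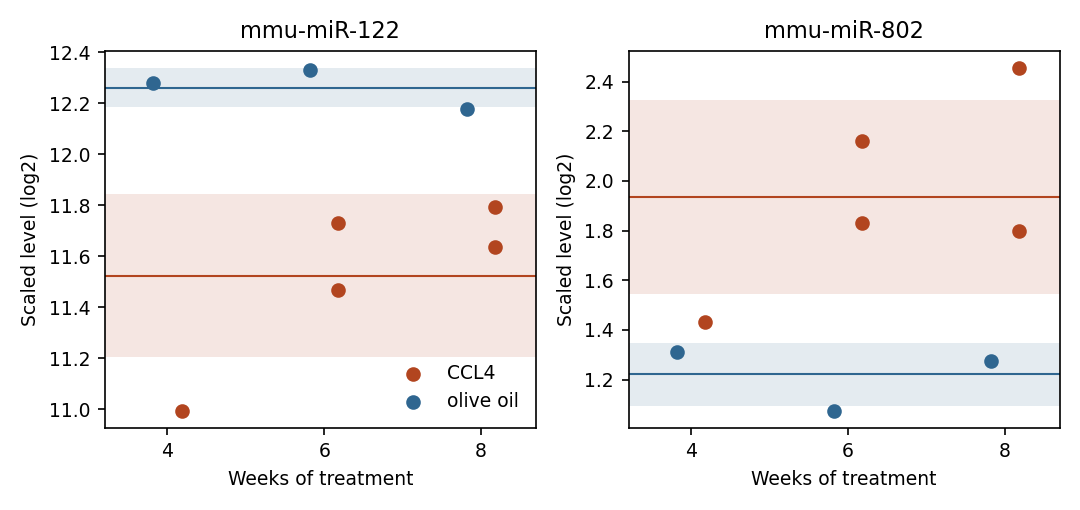
Scaled level (log2) of mmu-miR-122 (left) and mmu-miR-802 (right) against weeks of treatment, 1 point per array, in CCL4 mice (red) and control mice given olive oil (blue). Lines and bands are the mean and SD of the 5 CCL4 and the 3 olive oil arrays. All CCL4 points lie below the olive oil points for mmu-miR-122 and above them for mmu-miR-802, with 0.12 between the groups at the closest point of mmu-miR-802.

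Both directions can be read against all 133 miRNAs that were detected on at least 3 arrays. Of these, 43.6% were on every CCL4 array below every olive oil array, as mmu-miR-122 was, and 9.02% were above on every array, as mmu-miR-802 was. On the unscaled signal 0.00% were below and 14.3% above. By limma with Benjamini-Hochberg adjustment, 47 of the 133 (35.3%) passed an adjusted p of 0.05 as lower in CCL4 liver and 18 (13.5%) as higher. Without scaling these counts became 0 lower and 34 higher. With the 75th percentile over only the miRNAs detected on all arrays as the scale they became 10 lower and 21 higher. Since the selection used this contrast, nothing is read from where the members lie. The difference of mmu-miR-122 was lower than all but 4 of the tested miRNAs, and that of mmu-miR-802 was exceeded by 9.

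The scale moved the size of both differences. The median difference of the 113 miRNAs detected on all 8 arrays was -0.36 on the main scale, and relative to that median mmu-miR-122 was at -0.43 and mmu-miR-802 at 1.03. These relative values were the same under every scaling that divides a whole array by 1 number. Quantile normalization gave 0.08 for mmu-miR-122 and 0.68 for mmu-miR-802 relative to the median. Because mmu-miR-122 was the brightest miRNA on every array, quantile normalization sets its difference to 0 by construction. With no scaling the week-adjusted difference of mmu-miR-122 was -0.11 and that of mmu-miR-802 was 1.35. With the 75th percentile over only these 113 miRNAs as the scale the differences were -0.58 and 0.88.

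The ratio of the 2 signals within an array needs no scaling between arrays. Brightness depends on the probe, so the ratio is compared across arrays only and does not measure the relative abundance of the 2 miRNAs. The signal of mmu-miR-122 per unit of mmu-miR-802 in CCL4 mice was 757 at 4 weeks, 798 and 759 on the 6-week pair and 915 and 647 on the 8-week pair. Control mice gave 1999, 2441 and 1912. The highest CCL4 array was far below the lowest olive oil array.

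On the log2 scale, mmu-miR-802 over mmu-miR-122 in CCL4 mice was -9.56 at 4 weeks, -9.64 and -9.57 on the 6-week pair, and -9.84 and -9.34 on the 8-week pair, against -10.97, -11.25 and -10.90 in control mice. The gap between the groups was 1.06, while the SD was 0.18 (n = 5) for CCL4 and 0.19 (n = 3) for olive oil. The week-adjusted difference was 1.46 (SE 0.15), or 2.75-fold. Its difference was 1.40, 1.65 and 1.31 at the 3 times in turn, and dividing an array by any 1 number leaves these values as they are.

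As a share of the total signal of the array, mmu-miR-122 in CCL4 mice made up 22.0% at 4 weeks, 28.9% and 28.6% on the 6-week pair and 25.6% and 27.4% on the 8-week pair. Its share in control mice was 30.0%, 32.1% and 30.8%, each above all CCL4 values. For mmu-miR-802 the share in CCL4 mice was 0.0290% at 4 weeks, 0.0363% and 0.0377% on the 6-week pair and 0.0279% and 0.0423% on the 8-week pair. Control mice gave 0.0150%, 0.0131% and 0.0161%, each below all CCL4 values. By share, 1.50% of the tested miRNAs were lower on every CCL4 array and 33.1% were higher on every one. The share of any miRNA moves with that of the brightest one, mmu-miR-122.

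**Figure D2:**
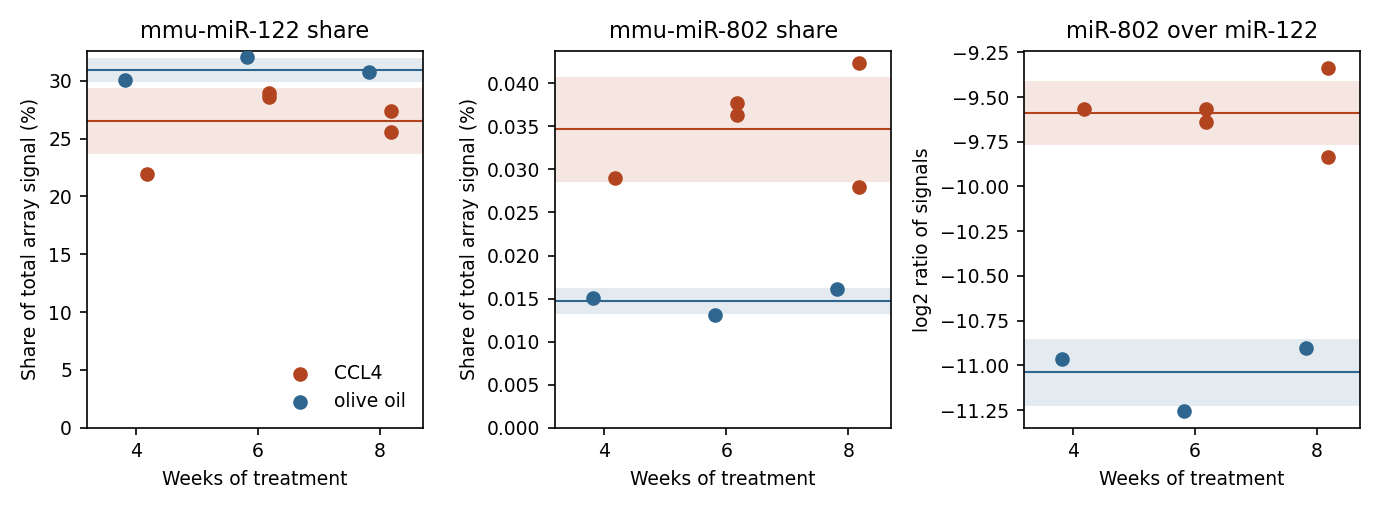
Share of the total array signal (%) of mmu-miR-122 (left) and mmu-miR-802 (middle), and log2 ratio of the signal of mmu-miR-802 over mmu-miR-122 (right), against weeks of treatment, 1 point per array, with mean and SD of each group as line and band. The ratio of the 5 CCL4 arrays lies between -9.84 and -9.34 and that of the 3 olive oil arrays between -11.25 and -10.90.

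Week by week, each comparison set 1 or 2 CCL4 arrays against 1 olive oil array. At 4, 6 and 8 weeks the difference of mmu-miR-122 was -1.28, -0.73 and -0.46. For mmu-miR-802 the difference was 0.12, 0.92 and 0.85 in the same order. The olive oil values of mmu-miR-802 at 4 and 6 weeks came from spots that were not well above background. Without scaling the differences of mmu-miR-122 were -0.39, -0.15 and 0.13 and those of mmu-miR-802 were 1.01, 1.50 and 1.44 at 4, 6 and 8 weeks, so that at 8 weeks mmu-miR-122 changed its direction. Under quantile normalization mmu-miR-802 was at -0.03 at 4 weeks.

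**Figure D3:**
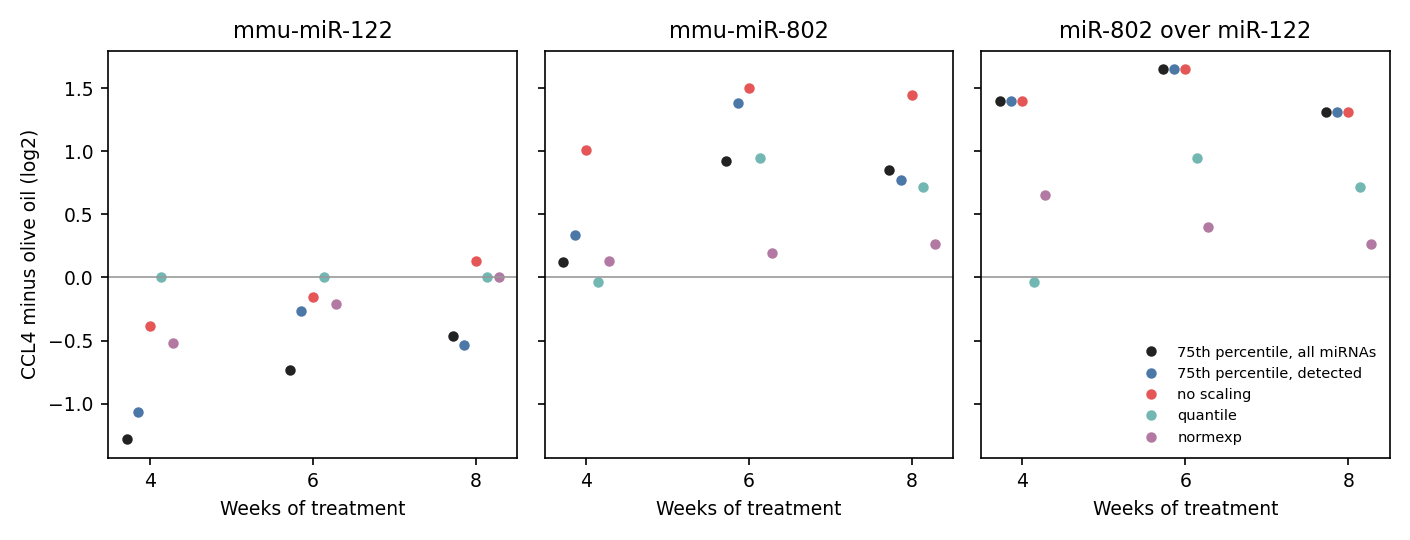
CCL4 minus olive oil (log2) at 4, 6 and 8 weeks for mmu-miR-122 (left), mmu-miR-802 (middle) and their ratio (right), with 1 point for each way of scaling or background correction and no error bars because 1 olive oil array was read at each week. Dividing an array by any 1 number leaves the ratio at 1.40, 1.65 and 1.31, while normexp background correction lowers it to 0.65, 0.40 and 0.27.

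Row of the slide moved with week, since all arrays of 8 weeks lay in row 2. Within row 1, CCL4 minus olive oil was -1.07 for mmu-miR-122, 0.44 for mmu-miR-802 and 1.51 for the ratio. Within row 2 the values were -0.46, 0.86 and 1.32. The values within a row were not adjusted for week, and the only control in row 2 was the olive oil array of 8 weeks. The part of the slide row in these differences was not tested beyond these values.

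The precision of the 2 miRNAs differed greatly. All 20 spots of mmu-miR-122 were well above background on every array, 0 of its 160 spots were saturated and its brightest spot reached 4.84% of the saturation value. The signal of its longer probe was between 2.74 and 3.01 times that of its shorter probe. CCL4 minus olive oil was -0.79 by the longer probe alone and -0.78 by the shorter.

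mmu-miR-802 was called detected on all 8 arrays, yet its spots were often not well above background. In CCL4 mice 12 of 20 spots were well above background at 4 weeks, 10 and 18 on the 6-week pair, and 17 and 13 on the 8-week pair. Control mice had 0 of 20 such spots at 4 and at 6 weeks and 8 of 20 at 8 weeks, all of the longer probe. The signal was between 6.90 and 8.99 times its error on the CCL4 arrays, and 3.54, 3.30 and 4.84 times its error in control mice at 4, 6 and 8 weeks. Thus the folds of mmu-miR-802 rest on olive oil values near background.

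Where the olive oil spots of mmu-miR-802 were not well above background, a rough guide was set. The lowest signal well above background on that array was taken as the olive oil value. This is not a strict bound, as a spot not well above background can exceed that signal. By the longer probe the guide gave 1.18-fold in CCL4 mice over all weeks, with 1 of 3 olive oil arrays measured. That value compares plain means and is not adjusted for week. At 6 weeks the longer probe gave 1.08-fold. By the shorter probe the guide gave 1.38-fold at 8 weeks. In the other cases with no olive oil spot well above background, the guide was below 1-fold and so secured no rise. By the shorter probe it was 0.674-fold over all weeks and 0.511-fold at 6 weeks. At 4 weeks it was 0.757-fold by the longer probe and 0.367-fold by the shorter. Normexp background correction, which lifts dim spots, gave 0.20 for mmu-miR-802, -0.22 for mmu-miR-122 and 0.42 for the ratio.

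**Figure D4:**
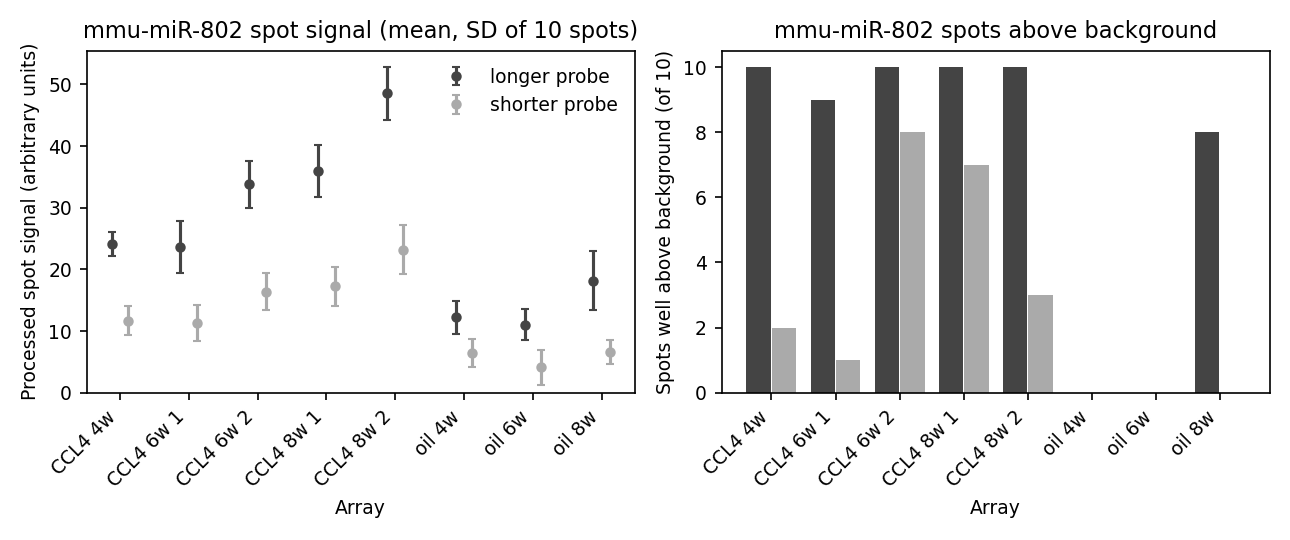
Processed spot signal of mmu-miR-802 (left; mean and SD of 10 spots, in arbitrary units) and number of its spots well above background out of 10 (right) on each of the 8 arrays, for the longer and the shorter probe. Of the controls, those of 4 and 6 weeks have 0 spots well above background by either probe.

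Within the CCL4 mice, 6 and 8 weeks were compared by limma across the 133 miRNAs, a comparison that the selection did not use. Here limma pooled the spread over the tested miRNAs, so every miRNA had the same SE. The p-value of a member thus does not measure that member's own spread. From 6 to 8 weeks (2 arrays each) the level of mmu-miR-122 differed by 0.12 (SE 0.23, limma adjusted p = 0.774), while mmu-miR-802 differed by 0.13 (SE 0.23, limma adjusted p = 0.755). Neither difference exceeded that pooled SE, and in this comparison 4.51% of the tested miRNAs passed. Both signs turned under some other scalings, without replicate 1 of 6 weeks, and with slide row as a covariate, which gave -0.014 for mmu-miR-122 and -0.033 for mmu-miR-802 and rests on replicate 2 of 6 weeks alone. With no scaling the differences were 0.59 and 0.61, and with normexp background correction that of mmu-miR-122 was 0.46, none past the threshold. The sign of mmu-miR-802 also turned without replicate 2 of 8 weeks, to -0.19.

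From 4 to 6 weeks, with 1 array at 4 weeks, the difference was 0.60 for mmu-miR-122. For mmu-miR-802 it was 0.56. These differences depended on the scale. With the 75th percentile of only the 113 fully detected miRNAs as the scale, mmu-miR-122 differed by 0.83 and mmu-miR-802 by 0.79. With no scaling they differed by 0.17 and 0.13. With the total signal without both members as the scale, mmu-miR-122 differed by 0.52. Without replicate 1 of 6 weeks mmu-miR-122 differed by 0.73 and mmu-miR-802 by 0.73, with 1 array left at either time. The 2 arrays of 6 weeks differed from each other by 0.26 for mmu-miR-122 and 0.33 for mmu-miR-802, and those of 8 weeks by 0.15 and 0.65. The spread between arrays at 4 weeks is not known, so no test of the difference from 4 to 6 weeks is given.

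The miRNAs whose scaled level went most closely with mmu-miR-122 over the 8 arrays were mmu-miR-151-5p (Pearson r = 0.990), mmu-let-7a (0.989), mmu-miR-101b (0.988), mmu-miR-202-3p (0.986) and mmu-miR-148a (0.983). The lowest correlations were with mmu-miR-296-5p (-0.81), mmu-miR-31 (-0.81) and mmu-miR-125a-5p (-0.89). These r are over 8 arrays of 2 treatments that share the scale of each array, and they describe the pattern only. Without scaling, r of mmu-miR-122 with mmu-miR-151-5p was 0.877 and with mmu-let-7a 0.955. The negative correlations were not kept without scaling, where r was 0.04 with mmu-miR-296-5p, 0.11 with mmu-miR-31 and 0.10 with mmu-miR-125a-5p.

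For mmu-miR-802 the closest were mmu-miR-34a (r = 0.87), a miRNA induced by p53, then mmu-miR-199b* (0.77), mmu-miR-200b (0.76), mmu-miR-301a (0.76) and mmu-miR-497 (0.75). Without scaling, r of mmu-miR-802 with these 5 was 0.965, 0.940, 0.917, 0.922 and 0.919 in the same order. On the scaled level the lowest were mmu-miR-7a (-0.67), mmu-miR-140* (-0.67) and mmu-miR-92a (-0.72). On the unscaled level r with these was positive, at 0.47, 0.64 and 0.58 in the same order. The correlation of mmu-miR-122 with mmu-miR-802 was -0.37 on the scaled and 0.30 on the unscaled level, over the same 8 arrays. The mature sequences of 4 of the 5 are shown with the seed in capitals, as in the RefSeq table of build GRCm38.p6, to set their seeds beside that of mmu-miR-802.
mmu-miR-34a: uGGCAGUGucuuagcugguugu
mmu-miR-200b: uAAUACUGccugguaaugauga
mmu-miR-301a: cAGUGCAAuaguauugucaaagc
mmu-miR-497: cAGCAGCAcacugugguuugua
The 5 seeds, with that of mmu-miR-802, were all different.

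mmu-miR-122 was set beside other miRNAs linked to hepatocytes or to liver transcription factors, a list of 11 of which 10 were tested and mmu-miR-215 was never detected. By limma 8 of the 10 were lower in CCL4 liver, against 35.3% of all tested miRNAs, and 0 were higher, with a median difference of -0.60, against -0.32 over all tested miRNAs. The lowest was mmu-miR-101b, at -0.86 (SE 0.18, limma adjusted p = 0.00995), and the highest was mmu-miR-33, a miRNA of the gene for sterol regulatory element binding protein 2, at 0.16 (SE 0.17, limma adjusted p = 0.470). Without scaling the 10 lay between -0.19 (mmu-miR-101b) and 0.83 (mmu-miR-33), with members on both sides of 0. The difference of mmu-miR-122 lay within the range of this list, and that of mmu-miR-802 lay above it. Because the selection used the opposite directions of the 2 miRNAs, nothing is read from these places.

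Lists of miRNAs that mark other cell types of the liver were set beside mmu-miR-802. Of 7 miRNAs of stellate and mesenchymal cells, 5 were tested and 4 were higher, against 13.5% of all tested miRNAs, with a median of 0.74, from mmu-miR-143 at 0.34 (limma adjusted p = 0.122) to mmu-miR-199b* at 1.46 (limma adjusted p = 0.000215). Their summed level was between 30.6 and 50.3 on the CCL4 arrays and between 22.4 and 29.4 on the olive oil arrays, and mmu-miR-214* was not detected on any array. Of 6 epithelial miRNAs, 3 were tested and 2 were higher, against the same 13.5%, with a median of 0.45. They ran from mmu-miR-200a at 0.25 (limma adjusted p = 0.192) to mmu-miR-31 at 0.86. Their summed level was between 13.0 and 17.9 on the CCL4 arrays and between 9.99 and 11.3 on the olive oil arrays.

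Of 7 leukocyte miRNAs 4 were tested, 0 were higher and 1 was lower, with a median of -0.07. They ran from mmu-miR-146a at -0.87 to mmu-miR-223 at 0.25 (limma adjusted p = 0.379). Without scaling they lay between -0.20 (mmu-miR-146a) and 0.92 (mmu-miR-223). Their summed level was between 50.4 and 145.9 on the CCL4 arrays and between 72.2 and 107.0 on the olive oil arrays. The 2 endothelial and the 3 erythroid miRNAs had 0 members past the threshold, with medians of -0.34 and -0.55, and without scaling all 5 differences were above 0, between 0.11 and 0.39. Of 8 miRNAs of muscle, brain and pancreas 0 were tested and 6 were never detected. The part of these cell types in the levels of mmu-miR-122 and mmu-miR-802 was not tested.

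**Figure D5:**
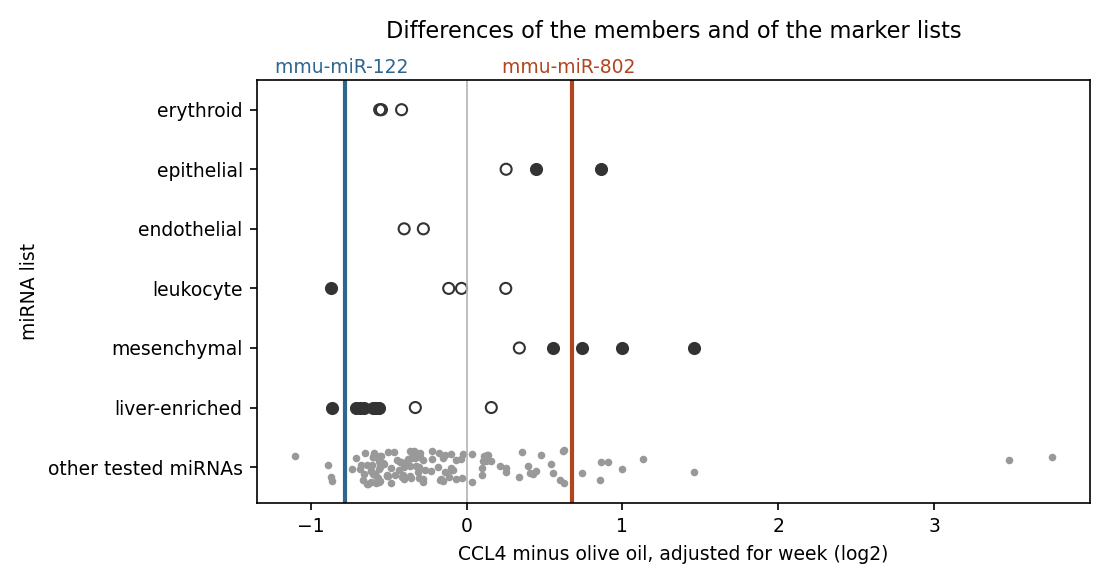
CCL4 minus olive oil (log2, adjusted for week) of the tested miRNAs other than mmu-miR-122 and mmu-miR-802 (grey, bottom row, spread vertically for sight only) and of the members of 6 marker lists (filled where the limma adjusted p was under 0.05), with vertical lines at mmu-miR-122 (-0.78) and mmu-miR-802 (0.68). The median of the tested miRNAs was -0.32.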

How the data were processed

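RNA of mouse liver was read on 8 Agilent miRNA arrays of 1 colour. Per the file headers, Feature Extraction 10.5.1.1 produced the intensity values. These are background-subtracted sums over the probes of a miRNA, and the deposited values were not scaled between arrays. A deposited table of processed values held log2 of these signals, with values under 1 set to 1, to within 1.107e-06. Each signal was divided by the array's 75th percentile over 567 mouse miRNAs, and log2 was taken after a floor of 0.01. The 133 miRNAs detected on at least 3 arrays were tested with R 4.3.3 and its package limma 3.58.1, with files read by data.table (version 1.17.8). CCL4 was compared with olive oil with week as a factor (4 residual degrees of freedom). Within CCL4, 6 and 8 weeks were compared by group means (2 residual degrees of freedom per miRNA, with the spread pooled over the 133 miRNAs). Both used Benjamini-Hochberg adjustment and a threshold of 0.05. From 4 to 6 weeks only differences are given. Both fits were tested on simulated data. The miRNAs named are the 2 members and the extremes of the liver, mesenchymal, epithelial and leukocyte lists. The 5 most and 3 least alike miRNAs by Pearson correlation among those detected on all 8 arrays are also named. mmu-miR-215 and mmu-miR-214* were named for not being detected. Members and lists were chosen with earlier results of these data known. Replicate numbers were not treated as pairing the arrays. The few arrays limit the precision. Alternatives covered scaling, floor, background correction (normexp, offset 50), filters, model terms, the methods' t-test and leaving out each array; those on slide row and single probes, and all for the members from 4 to 6 weeks, were chosen after seeing the data. Human arrays, qPCR and cell experiments were not analysed here.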

Additional observations from a re-analysis of the deposited data

How the results depend on the processing

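mmu-miR-802 and the ratio stayed above 0 and mmu-miR-122 at or below 0 under all alternatives for CCL4 minus olive oil over all weeks. For mmu-miR-122 (-0.78) the difference was -0.11 with no scaling, -0.36 with the total signal without the 2 members as scale, -0.22 with normexp, 0 with quantile normalization and, with no week term, -1.07 within slide row 1 and -0.46 within row 2. For mmu-miR-802 (0.68) it was 1.35, 1.101 and 0.20 with the first 3 of these. The ratio (1.46) was 0.60 with quantile normalization and 0.42 with normexp. Leaving out each array gave -0.97 to -0.60, 0.54 to 0.89 and 1.35 to 1.55 for the 3. Counts of higher miRNAs (18) were 34 with no scaling, 8 with normexp, 5 with no filter, 11 with no week term, 10 by the methods' t-test with Benjamini-Hochberg and 0 with Bonferroni, and 8 to 14 leaving out each array. Counts of lower miRNAs (47) were 10 with the percentile over detected miRNAs, 17 with quantile normalization, 0 with no scaling, 5 with the total as scale, 0 with normexp, 0 with no filter, 16 with no week term, 23 and 1 by the t-test, and 5 to 60 leaving out each array, the lowest without the olive oil array of 6 weeks. From 6 to 8 weeks the count (6, or 17 at an unadjusted p under 0.05) was 0 with the percentile over detected miRNAs, the total as scale, normexp, no filter or the t-test, 1 with quantile normalization, 11 with no scaling, and 1 to 35 leaving out each array. The difference of mmu-miR-122 (0.12) was -0.22 with the percentile over detected miRNAs, -0.17 with the total as scale, -0.014 with slide row as a covariate, 0 with quantile normalization, 0.59 with no scaling and 0.46 with normexp; that of mmu-miR-802 (0.13) was -0.20, -0.15, -0.033, -0.046, 0.61 and 0.12, and none passed. Leaving out each array gave -0.014 to 0.25 and -0.19 to 0.46. From 4 to 6 weeks the count (24) was 62 with the percentile over detected miRNAs, 50 with quantile normalization, 55 with the total as scale, 6 with normexp and 11 to 51 leaving out each array. For mmu-miR-122 (0.60) the difference was 0.83 with the percentile over detected miRNAs and 0.52 with the total as scale. It was 0.17 with no scaling, 0.29 with normexp and 0 with quantile normalization. For mmu-miR-802 (0.56) it was 0.13 with no scaling and 0.064 with normexp. Leaving out each array gave 0.47 to 0.73 and 0.40 to 0.73, both highest without replicate 1 of 6 weeks. Beyond what quantile normalization and the normexp offset do by construction, the cause of these shifts was not tested. The deviations of replicate 1 in the CCL4 pairs of 6 and 8 weeks had r = 0.05 over the 133 miRNAs. With only 2 pairs this cannot show whether replicate numbers pair the arrays. The replicate block gave -0.89, 0.47 and 1.36 for the members and the ratio, and 12 higher and 54 lower miRNAs. Signal near background limits mmu-miR-802 on the olive oil arrays.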
